A study of Mus musculus with 10 samples.

Results

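HOX genes encode homeodomain transcription factors that lie in 4 clusters, HOXA to HOXD, and the members of a paralog group share a number and a similar place in their cluster. Genes of low number act towards the head, and those of high number act towards the tail, the limbs and the genital tract. Polycomb repressive complex 2, whose methyltransferase is EZH2, is the textbook repressor of HOX genes outside their domains of expression, and HOXB13 is the member best known as a marker and regulator of the prostate. Every gene whose symbol read HOX, then A, B, C or D, then a number was taken, which gave 39 genes (11 HOXA, 10 HOXB, 9 HOXC and 9 HOXD) among 24043 genes in the table of the chemical experiment and 24016 in that of the genetic experiment. The rule used names alone, and no expression value.

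Expression came from organoids, 3-dimensional cultures of mouse prostate cancer whose source was the dorsal-lateral lobe in C57BL/6 animals 8 weeks old. All carried a cMYC overexpression construct, floxed EZH2 alleles and an inducible PSA-CreERT2, a recombinase that Tamoxifen switches on in cells using the PSA promoter, and all were kept in 10 nM of the synthetic androgen R1881. The chemical experiment set 3 libraries from 1 µM DZNep, an S-adenosylhomocysteine hydrolase inhibitor used in the series against EZH2, beside 3 from DMSO. The genetic experiment set 2 libraries from 1 µM Tamoxifen beside 2 from EtOH, and RNA was taken at 3 days in both. Floxed EZH2 and the cMYC construct were thus present in the controls too. Whether replicates came from separate cultures or animals is not given in the labels, and each p-value therefore rests on a spread among libraries that could be purely technical.

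Values are RPKM, reads scaled by gene length and by library size, which allow levels of different genes to be set side by side. Each library listed between 15021 and 15404 genes above 0. Absolute depth cannot be read from RPKM. The commonest ratio of weakly expressed genes put relative depth between 0.753 in DZNep 2 and 1.16 in DMSO 3 and Tamoxifen 2, with DMSO 1 at 1. Epithelial markers were abundant in every library, among them KRT5, KRT8, KRT18 and TRP63. Prostate secretory markers numbered 7 in the data, of which 5 were listed at 0 in every library, including PBSN, which encodes probasin. Of 7 immune markers 5 stayed under 0.5 RPKM in every library, PTPRC and CD3E among them, while CD14 (29.5 to 53.2 RPKM) and CD68 (11.6 to 17.9 RPKM) were expressed in all. Of 6 endothelial markers, CDH5 and CLDN5 were listed at 0 throughout and PECAM1 was highest, at 0.445 RPKM in DZNep 1.

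EZH2 is the targeted gene. It measured 22.5, 24.2 and 24.7 RPKM in DZNep, against 30.4, 29.8 and 27.1 RPKM in DMSO, groups that did not overlap. The log2 change was -0.28 (SE 0.0612; limma adjusted p = 0.0142), and it was -0.26 with an adjusted p of 0.0641 when DMSO 2 was left out. Permuting the library labels (exact, two-sided) gave p = 0.1, which is the lowest value possible with 3 libraries in each group. EZH2 measured 32.0 and 33.2 RPKM in Tamoxifen, against 27.9 and 34.0 RPKM in EtOH, so the groups overlapped (log2 change 0.08, limma adjusted p = 0.635; exact permutation p = 1, smallest possible 0.333). A value for the whole gene counts exons outside the floxed part and does not check the deletion.

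Which HOX genes these organoids expressed did not follow one rule across the clusters. The HOXA cluster was broadly on, the HOXC cluster was silent, and HOXB and HOXD were each dominated by their gene 13. Of the 39 members, 16 averaged at least 1 RPKM in both tables and 2 more, HOXB3 and HOXB6, did so in the chemical table alone. Another 12 averaged under 1 RPKM in both tables, and 9 were listed at 0 in all 10 libraries. Only 5 members reached a mean of 10 RPKM in DMSO, namely HOXA9, HOXA10, HOXA11, HOXB13 and HOXD13. Together they held between 72.0% and 76.6% of the summed HOX RPKM of a library, and the members of paralog groups 9 to 13 held between 81.3% and 85.01%.

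**Figure D1:**
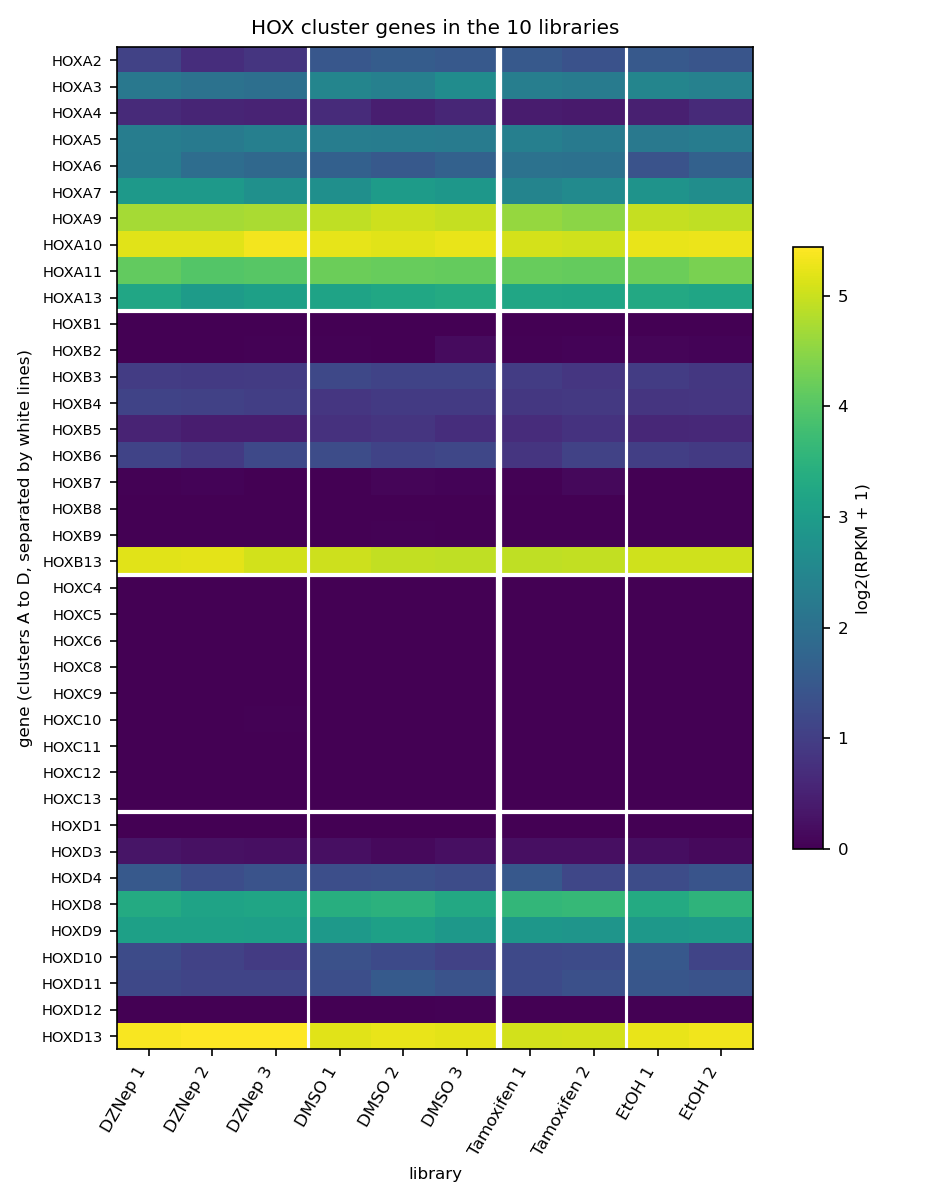
HOX levels in every library. Rows are HOX genes, columns the 10 libraries, and colour gives log2(RPKM + 1). White lines part the clusters and the groups. HOXA9, HOXA10, HOXA11, HOXB13 and HOXD13 form the brightest rows in all libraries, and the 9 HOXC rows stay dark, the highest value among them being 0.0167 RPKM.

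The order of levels was close in the vehicle groups. In DMSO, HOXA10, known for its part in uterine and urogenital development, averaged 36.6 ± 0.688 RPKM and HOXD13, a regulator of digits and of the genital tract, 36.3 ± 0.953 RPKM (SD, n = 3), with overlapping libraries. HOXA9, best known in blood cell progenitors, averaged 30.3 ± 1.21 RPKM and HOXB13 30.2 ± 1.34 RPKM, again with overlap. HOXA11, of the limb and the genital ducts, followed at 17.2 ± 0.309 RPKM and overlapped neither neighbour. HOXD8 (9.53 ± 0.754 RPKM) and HOXA13 (8.43 ± 0.515 RPKM) overlapped, as did HOXD9 (6.88 ± 0.562 RPKM) and HOXA7 (6.27 ± 0.671 RPKM). HOXA3, which patterns the third pharyngeal arch, averaged 4.63 ± 0.538 RPKM, HOXA5, needed for lung maturation, 3.86 ± 0.0401 RPKM and HOXA6 2.09 ± 0.201 RPKM. EtOH libraries had the same 12 genes at the top, with HOXD13 first at 38.1 ± 1.18 RPKM and HOXA10 at 37.7 ± 0.476 RPKM (SD, n = 2).

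Paralogs of the same number were far apart. In group 13, DMSO libraries averaged 36.3 RPKM for HOXD13, 30.2 for HOXB13 and 8.43 for HOXA13, and HOXC13, known for hair and nail formation, was listed at 0. In group 10, HOXA10 averaged 36.6 RPKM and HOXD10 1.33 ± 0.233 RPKM, whereas HOXC10 was listed at 0 in 9 of the 10 libraries and at 0.0167 RPKM in DZNep 3. In group 9, HOXA9 averaged 30.3 RPKM and HOXD9 6.88, against 0.0137 ± 0.00635 for HOXB9 and a listed 0 for HOXC9. Neighbours within a cluster differed as widely: HOXD12, which lies next to HOXD13, was above 0 in 2 of 10 libraries and reached 0.0200 RPKM at most. HOXB13 stood alone in the same way, since HOXB7, HOXB8 and HOXB9 never passed 0.0882, 0.0105 and 0.0210 RPKM.

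**Figure D2:**
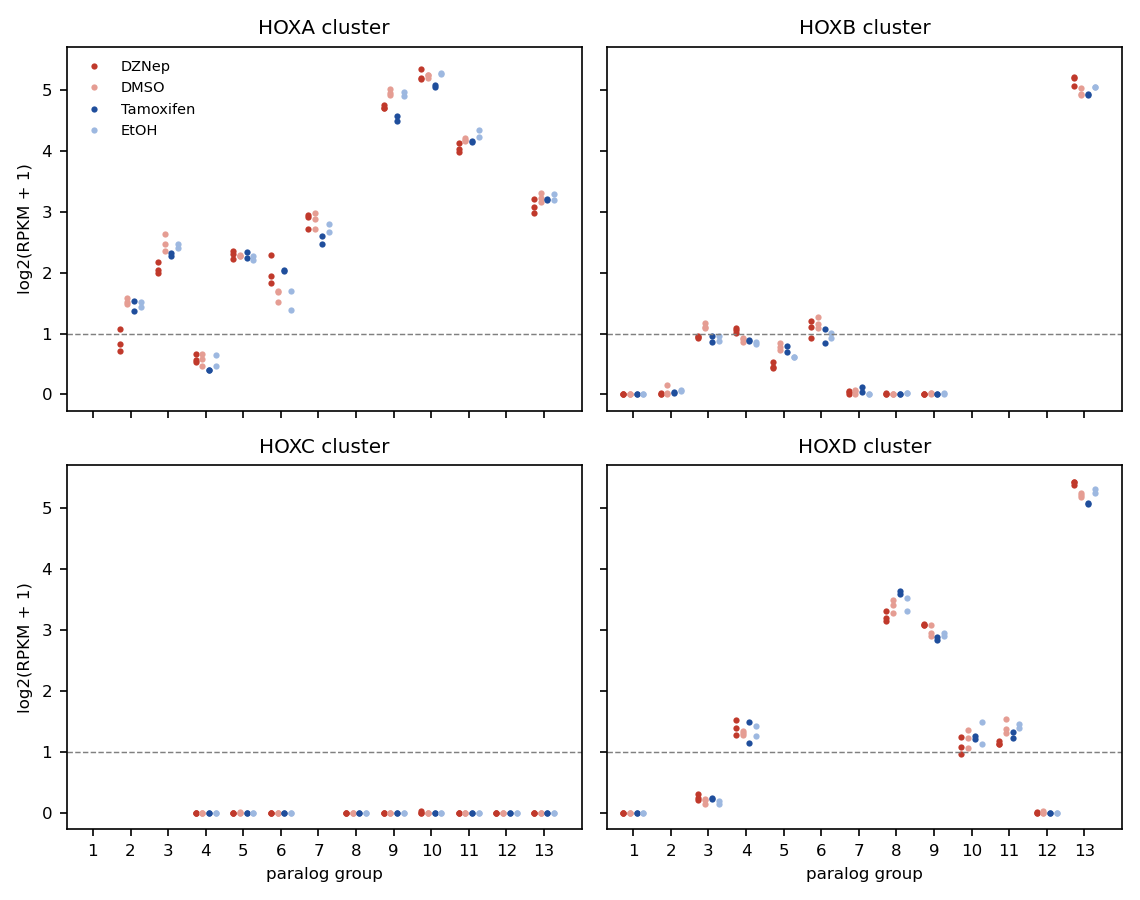
HOX levels by paralog group. Each point is 1 library, the x axis gives the paralog number, the y axis log2(RPKM + 1), and the dashed line marks 1 RPKM. HOXA is highest at paralog 10, HOXB and HOXD peak at paralog 13 (30.2 and 36.3 RPKM in DMSO), and HOXC lies at the floor.

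Members near 0 stayed there in both experiments. The genes listed at 0 in all 10 libraries were HOXB1, HOXC4, HOXC6, HOXC8, HOXC9, HOXC11, HOXC12, HOXC13 and HOXD1. In all, 17 members lay under 0.5 RPKM in each of the 5 vehicle libraries, and 0 of them reached 0.5 RPKM in a treated library. The highest treated value among the 17 was 0.237 RPKM, of HOXD3 in DZNep 1, and without HOXD3 it was 0.0882 RPKM, of HOXB7 in Tamoxifen 2. Summed over the 17, DZNep libraries held 0.196 to 0.281 RPKM and DMSO libraries 0.177 to 0.362, while Tamoxifen libraries held 0.218 to 0.295 and EtOH libraries 0.141 to 0.217. HOXD3 itself measured 0.237, 0.186 and 0.159 RPKM in DZNep, against 0.160, 0.107 and 0.164 in DMSO, which overlapped, and 0.169 and 0.174 RPKM in Tamoxifen, against 0.143 and 0.0975 in EtOH, which did not. The annotated body of HOXD3 overlaps that of HOXD4. A listed 0 in RPKM carries no count, so the level that it would still allow is not known.

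Promoter sequence was set beside these levels to show an expressed, a weakly expressed and several silent members. The RefSeq table of GRCm38.p6 held 300-base windows, 250 before and 50 after an annotated start, for 22 of the 39 members (24 windows). The files used mm9, so genes were matched by symbol alone. The 250 bases upstream of the start follow for 3 expressed genes, then for 3 that were silent or nearly so, each 5′ to 3′ along the gene, with every CG dinucleotide in capitals.
HOXA9 (expressed; chr6:52227371-52227620, minus strand): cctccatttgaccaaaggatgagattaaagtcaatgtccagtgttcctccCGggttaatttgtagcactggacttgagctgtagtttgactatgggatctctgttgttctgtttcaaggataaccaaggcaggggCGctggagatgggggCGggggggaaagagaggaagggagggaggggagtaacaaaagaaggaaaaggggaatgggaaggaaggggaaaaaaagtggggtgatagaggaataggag
HOXD13 (expressed; chr2:74667975-74668224, plus strand): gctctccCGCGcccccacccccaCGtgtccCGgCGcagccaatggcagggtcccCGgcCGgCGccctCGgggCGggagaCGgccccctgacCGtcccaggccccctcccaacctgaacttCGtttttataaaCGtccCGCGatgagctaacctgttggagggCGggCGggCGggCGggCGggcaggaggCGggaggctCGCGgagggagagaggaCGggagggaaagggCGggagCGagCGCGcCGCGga
HOXA2 (weakly expressed; chr6:52164832-52165081, minus strand): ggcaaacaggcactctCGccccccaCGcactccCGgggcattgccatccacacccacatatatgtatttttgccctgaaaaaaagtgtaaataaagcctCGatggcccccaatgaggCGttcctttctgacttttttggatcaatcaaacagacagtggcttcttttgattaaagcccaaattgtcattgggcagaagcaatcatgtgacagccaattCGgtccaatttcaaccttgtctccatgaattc
HOXB1 (listed at 0; chr11:96365508-96365757, plus strand): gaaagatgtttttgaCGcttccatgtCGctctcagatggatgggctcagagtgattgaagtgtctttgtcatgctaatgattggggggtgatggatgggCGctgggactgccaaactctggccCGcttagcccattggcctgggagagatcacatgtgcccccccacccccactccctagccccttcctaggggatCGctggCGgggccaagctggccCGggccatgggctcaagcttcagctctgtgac
HOXC4 (listed at 0; chr15:103034145-103034394, plus strand): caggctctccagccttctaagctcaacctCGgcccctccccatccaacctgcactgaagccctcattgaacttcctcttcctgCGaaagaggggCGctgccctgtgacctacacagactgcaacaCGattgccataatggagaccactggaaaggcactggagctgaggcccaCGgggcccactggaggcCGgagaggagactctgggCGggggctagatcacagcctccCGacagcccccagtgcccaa
HOXD12 (nearly silent; chr2:74674763-74675012, plus strand): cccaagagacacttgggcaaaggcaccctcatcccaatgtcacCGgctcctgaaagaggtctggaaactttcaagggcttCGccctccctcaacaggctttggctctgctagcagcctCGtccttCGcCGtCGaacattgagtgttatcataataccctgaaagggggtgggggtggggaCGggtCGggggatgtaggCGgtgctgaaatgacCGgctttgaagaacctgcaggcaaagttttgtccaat

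Capitals are dense upstream of HOXD13, with 31 CG in 250 bases, and sparse upstream of HOXA9, with 3, although both genes were among the strongest. The silent HOXB1, HOXC4 and HOXD12 windows fell between them with 7, 8 and 10. Over whole 300-base windows, HOX promoters held a median of 14.5 CG (range 4 to 45), against 7 over all 32851 windows of the table, and 70.8% of HOX windows had at least 10 CG, against 43.5% of all windows. Expressed members, those averaging 1 RPKM or more in a table, had a median of 20 CG in 17 windows, and the others 13 in 7 windows. TATAAA, searched on both strands, was present in 4 of 24 HOX windows (16.7%), those of HOXA10, HOXB8, HOXD4 and HOXD13, and in 13.6% of all windows. At least 10 CG were present in 64.7% of the windows of expressed members and in 85.7% of the others, which include the weakly expressed HOXB4. CG count therefore did not sort expressed members from the others among the windows at hand.

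**Figure D3:**
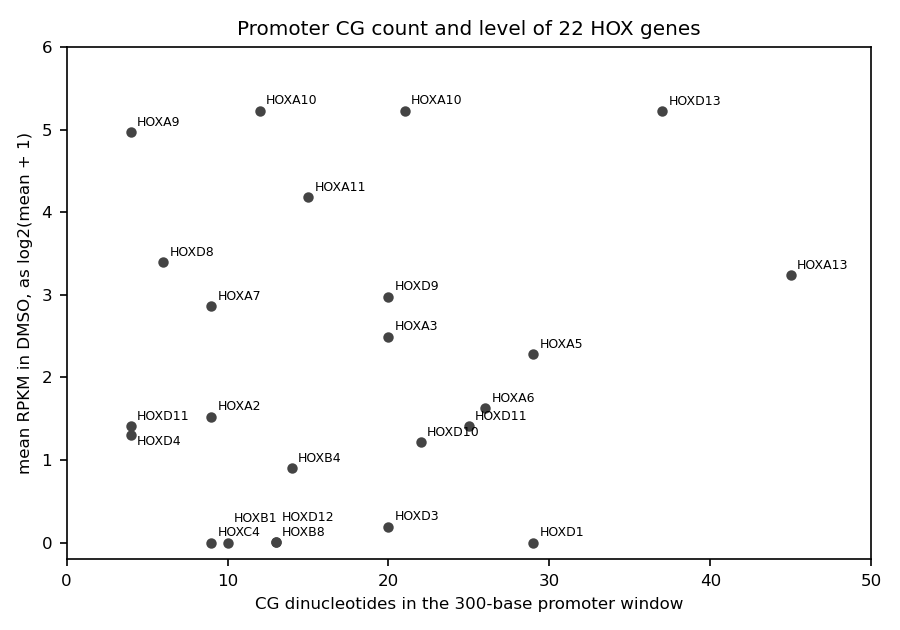
Promoter CG count and level. Each point is 1 window of the 22 matched HOX genes, the x axis counts CG dinucleotides in 300 bases, and the y axis gives the mean RPKM in DMSO as log2(mean + 1). HOXA9 with 4 CG and HOXD13 with 37 CG lie at similar height, and HOXD1 with 29 CG lies at 0.

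The chemical comparison asked how 3 days of DZNep altered the expressed HOX genes. They moved in both directions: HOXA6, HOXB13 and HOXD13 rose, HOXA2, HOXA3, HOXA9 and HOXD11 fell, and 11 of the 18 tested members did not pass. Changes ran from -0.65 to 0.39 on the log2(RPKM + 1) scale, which understates changes of weakly expressed genes. With a pseudocount of 0.1 in place of 1, HOXA2 changed by -1.10 and HOXD11 by -0.43. The 7 called are 38.9% of the 18, where 27.7% of all 11143 genes passed limma at an adjusted p under 0.05 (1850 rose and 1238 fell, or 16.6% and 11.1%). Among HOX genes the shares were 16.7% up and 22.2% down. The split over all genes was 1635 up and 1635 down where values were quantile normalized, with 3 HOX genes up and 5 down, and scaling by a trimmed mean gave 1641 up and 1490 down, with 2 HOX genes up and 4 down. The median change was -0.11 over the 18 and 0.01 over all genes. The other 21 members lay below the filter of 1 RPKM and were not tested here, so these counts do not describe the cluster genes at large.

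HOXA2, which patterns the hindbrain and the second pharyngeal arch, had the deepest fall. It measured 1.11, 0.638 and 0.783 RPKM in DZNep, against 1.79, 1.99 and 1.86 RPKM in DMSO. Every DZNep library lay below every DMSO library, and the ratio of means was 0.450 (log2 change -0.65, SE 0.102; limma adjusted p = 0.00377). HOXA3 measured 3.54, 3.12 and 2.98 RPKM in DZNep, against 4.55, 4.15 and 5.21 RPKM in DMSO (log2 change -0.42, SE 0.0843; adjusted p = 0.0103). Again the groups did not overlap, with a ratio of means of 0.693. Both calls held when any single library was left out, with adjusted p of at most 0.0203 for HOXA2 and 0.0405 for HOXA3. The annotated body of HOXA3 overlaps those of HOXA4, HOXA5 and HOXA6, and the sources used here do not say how shared reads were assigned.

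HOXA9 was lower at a much higher level. It measured 25.1, 25.3 and 26.0 RPKM in DZNep, against 29.2, 31.6 and 30.1 RPKM in DMSO, with no overlap (log2 change -0.24, SE 0.0478; limma adjusted p = 0.00973). Without DMSO 2 the change was -0.21 with an adjusted p of 0.0533. HOXD11, of the forearm and kidney, measured 1.27, 1.18 and 1.17 RPKM in DZNep, against 1.49, 1.90 and 1.60 RPKM in DMSO, also with no overlap (log2 change -0.27, SE 0.0785; adjusted p = 0.0376). Its call was lost without DZNep 1 (adjusted p = 0.0593), DZNep 2 (0.104), DZNep 3 (0.0866), DMSO 2 (0.136) or DMSO 3 (0.0715). Its annotated body overlaps that of HOXD10.

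The members that rose included both strongly expressed genes of paralog group 13. HOXD13 measured 40.6, 42.3 and 42.1 RPKM in DZNep, against 35.3, 37.3 and 36.3 RPKM in DMSO, so all DZNep libraries were higher (log2 change 0.19, SE 0.0453; limma adjusted p = 0.0175). HOXB13, which cooperates with the androgen receptor in prostate cells, measured 35.8, 36.1 and 32.6 RPKM in DZNep, against 31.7, 29.7 and 29.2 RPKM in DMSO (log2 change 0.20, SE 0.0574; adjusted p = 0.0365). The groups did not overlap, but DZNep 3 and DMSO 1 were close. The HOXD13 call was lost without DZNep 2 (adjusted p = 0.0778) or DMSO 2 (0.0540), and that of HOXB13 without DZNep 1 (0.0925), DZNep 2 (0.132), DMSO 2 (0.129) or DMSO 3 (0.102). The third gene of the group, HOXA13, needed for limb and genital tubercle growth, measured 8.26, 6.91 and 7.49 RPKM in DZNep, against 7.93, 8.39 and 8.96 RPKM in DMSO, which overlapped (log2 change -0.14, adjusted p = 0.170).

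HOXA6 had the largest positive change. It measured 3.90, 2.83 and 2.55 RPKM in DZNep, against 2.19, 1.86 and 2.23 RPKM in DMSO. DZNep 1 stood highest, and the groups did not overlap (log2 change 0.39, SE 0.120; limma adjusted p = 0.0441). The call was lost without DZNep 1 (adjusted p = 0.0665), DZNep 2 (0.0781), DMSO 1 (0.0601), DMSO 2 (0.140) or DMSO 3 (0.0708), and with trimmed mean scaling (0.0504).

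HOXA10, among the strongest members, did not pass. It measured 35.4, 35.6 and 39.5 RPKM in DZNep, against 36.9, 35.8 and 37.0 RPKM in DMSO (log2 change 0.01, SE 0.0554; limma adjusted p = 0.919). HOXA7 measured 6.54, 6.68 and 5.60 RPKM in DZNep, against 5.55, 6.87 and 6.39 RPKM in DMSO (0.00, adjusted p = 0.994). HOXA5 measured 3.95, 3.70 and 4.12 RPKM in DZNep, against 3.91, 3.86 and 3.83 RPKM in DMSO (0.02, adjusted p = 0.843). The groups of all 3 overlapped, and their signs turned negative after quantile normalization. HOXA11 measured 16.6, 14.9 and 15.3 RPKM in DZNep, against 17.5, 17.2 and 16.9 RPKM in DMSO (log2 change -0.13, adjusted p = 0.0960). The HOXA11 groups did not overlap, and with quantile normalization it passed (-0.15, limma adjusted p = 0.0482). HOXA11OS, the antisense gene that overlaps it, fell (log2 change -0.37, SE 0.0461; limma adjusted p = 0.00139). It measured 17.8, 17.8 and 16.9 RPKM in DZNep, against 23.1, 22.3 and 23.5 RPKM in DMSO. The kit was stranded, but the sources used here do not say whether the quantification used strand.

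The remaining tested members changed by -0.18 to 0.11. HOXD8, known for a part in limb and trunk patterning, measured 8.94, 7.89 and 8.21 RPKM in DZNep, against 9.64, 10.2 and 8.72 RPKM in DMSO (log2 change -0.17, limma adjusted p = 0.0996). HOXD9 measured 7.52, 7.49 and 7.43 RPKM in DZNep, against 6.69, 7.51 and 6.43 RPKM in DMSO (0.11, adjusted p = 0.206). HOXB3 measured 0.940, 0.898 and 0.924 RPKM in DZNep, against 1.26, 1.14 and 1.15 RPKM in DMSO, with no overlap (-0.18, adjusted p = 0.0808). HOXB6 measured 1.15, 0.897 and 1.31 RPKM in DZNep, against 1.40, 1.13 and 1.23 RPKM in DMSO (-0.09, adjusted p = 0.480). HOXD4 measured 1.86, 1.43 and 1.61 RPKM in DZNep, against 1.48, 1.52 and 1.41 RPKM in DMSO (0.09, adjusted p = 0.421). HOXD10 measured 1.36, 1.11 and 0.938 RPKM in DZNep, against 1.56, 1.34 and 1.09 RPKM in DMSO (-0.13, adjusted p = 0.399). Groups overlapped for all of these except HOXB3.

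**Figure D4:**
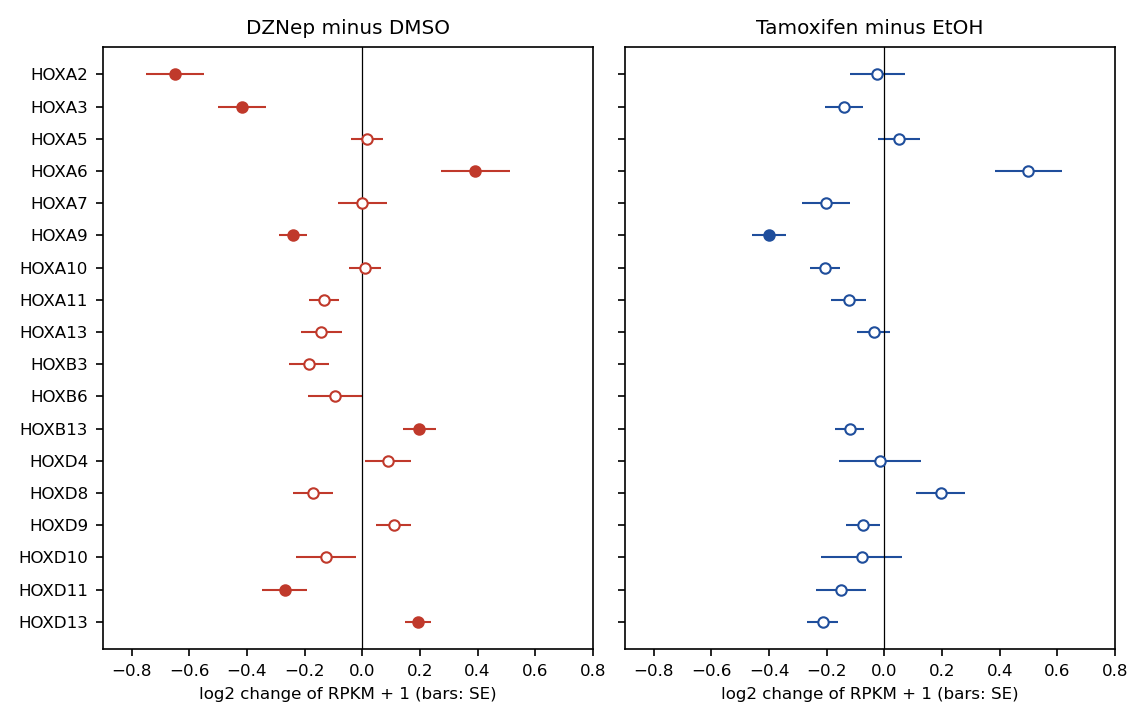
Changes of the tested HOX genes. Points give log2 changes of RPKM + 1 from limma with SE bars, for 18 genes after DZNep and 16 after Tamoxifen, and filled points passed an adjusted p of 0.05. DZNep changes lie on both sides of 0, from -0.65 for HOXA2 to 0.39 for HOXA6, and HOXA9 is the filled point after Tamoxifen.

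Members below the filter that had a library of at least 0.5 RPKM included HOXA4, HOXB4 and HOXB5. HOXB5, of the vagal and lung-forming region, measured 0.451, 0.359 and 0.355 RPKM in DZNep, against 0.718, 0.790 and 0.649 RPKM in DMSO, a ratio of means of 0.540 with no overlap. HOXB4, known for its effect on blood stem cells, measured 1.13, 1.07 and 1.02 RPKM in DZNep, against 0.823, 0.888 and 0.900 RPKM in DMSO, also apart. With no filter, HOXB5 had a log2 change of -0.31 (limma adjusted p = 0.00912) and HOXB4 one of 0.15 (adjusted p = 0.0410). HOXB3 passed in that fit (adjusted p = 0.0237) and in one with no mean trend (0.0262), while without the filter HOXA6 (adjusted p = 0.0954) and HOXB13 (0.0533) were no longer called. The annotated bodies of HOXB3 and HOXB4 overlap each other. HOXA4, at 0.377 to 0.592 RPKM in these libraries, overlapped between groups, with a log2 change of 0.02 (adjusted p = 0.854).

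Summed over a cluster, DZNep libraries held 105, 100.2 and 105 RPKM of HOXA, against 110, 112 and 113 RPKM in DMSO. The HOXD sum was 61.8, 61.6 and 61.6 RPKM in DZNep, against 56.4, 59.9 and 55.8 RPKM in DMSO, and the HOXB sum was 36.3 to 39.5 RPKM in DZNep, against 33.3 to 36.0 RPKM in DMSO. Every DZNep library lay below every DMSO library for HOXA and above it for HOXB and HOXD. HOXB13 made up most of the HOXB sum, averaging 34.8 RPKM in DZNep and 30.2 RPKM in DMSO. HOXD13 made up most of the HOXD sum, at 41.7 RPKM in DZNep and 36.3 RPKM in DMSO. The HOXB and HOXD sums thus followed these genes and do not describe the other members. The sum of all 39 genes overlapped, at 201 to 206 RPKM in DZNep and 203 to 206 RPKM in DMSO. In bulk RNA, fewer cells of a type and less RNA per cell cannot be told apart.

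Cell type markers moved in the same libraries. Of 7 basal epithelial markers 5 rose and 1 fell, where 16.6% of all genes rose and 11.1% fell, and their sum was 6786 to 7061 RPKM in DZNep, against 5006 to 5298 RPKM in DMSO. Of 9 luminal markers 3 rose and 0 fell, with sums of 4944 to 5179 RPKM in DZNep, against 4646 to 4808 RPKM in DMSO. Of 12 fibroblast and smooth muscle markers 2 were tested, DCN and ACTA2, and 2 rose. The sums were 8.90 to 9.94 RPKM in DZNep, against 3.61 to 4.75 RPKM in DMSO, with COL3A1 and DES listed at 0 in all libraries. Of 7 immune markers 2 were tested and 1 rose, CD14 (log2 change 0.44, limma adjusted p = 0.00157), and the list summed to 59.7 to 61.4 RPKM in DZNep, against 43.8 to 48.6 RPKM in DMSO. Of 7 neuroendocrine markers ENO2 alone was tested, and it fell (-0.48, limma adjusted p = 0.0112), with CHGA listed at 0 in all libraries and list sums of 4.48 to 5.92 RPKM in DZNep, against 6.46 to 7.63 RPKM in DMSO. The part of these markers in the HOX changes was not tested.

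The genetic comparison put the same question to organoids given Tamoxifen. HOXA9 was the single member called, and it fell. It measured 22.8 and 21.6 RPKM in Tamoxifen, against 30.3 and 29.0 RPKM in EtOH, a ratio of means of 0.749 (log2 change -0.40, SE 0.0584; limma adjusted p = 0.0445). That is 1 of 16 tested members, or 6.25%, where 2.07% of all 11123 genes were called (77 rose and 153 fell, or 0.692% and 1.38%), and 4 members had an unadjusted p under 0.05, as had 25.5% of all genes. The HOXA9 call was lost without Tamoxifen 1 (adjusted p = 0.197), Tamoxifen 2 (0.335) or EtOH 1 (0.0606), each of which leaves 1 library in a group that is then assumed to vary like the others. Quantile normalized values gave 87 genes up and 253 down over the whole table, and scaling by a trimmed mean gave 96 up and 292 down, each with 1 HOX gene called, HOXA9.

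Other strong members lay lower in Tamoxifen without passing. HOXD13 measured 32.6 and 32.8 RPKM in Tamoxifen, against 37.3 and 39.0 RPKM in EtOH (log2 change -0.21, SE 0.0537; limma adjusted p = 0.104). HOXA10 measured 33.0 and 32.2 RPKM in Tamoxifen, against 37.4 and 38.1 RPKM in EtOH (-0.21, SE 0.0516; adjusted p = 0.104). HOXB13 measured 29.3 and 29.6 RPKM in Tamoxifen, against 32.1 and 32.1 RPKM in EtOH (-0.12, SE 0.0501; adjusted p = 0.209). HOXA11 measured 17.0 and 16.7 RPKM in Tamoxifen, against 17.7 and 19.2 RPKM in EtOH (-0.12, adjusted p = 0.269), and HOXA7 4.52 and 5.06 RPKM in Tamoxifen, against 5.98 and 5.34 RPKM in EtOH (-0.20, adjusted p = 0.204). In each of these the groups did not overlap.

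HOXA6 and HOXD8 lay the other way. HOXA6 measured 3.12 and 3.09 RPKM in Tamoxifen, against 1.61 and 2.23 RPKM in EtOH (log2 change 0.50, SE 0.117; limma adjusted p = 0.0928), and passed without EtOH 2 (0.65, adjusted p = 0.0318). HOXD8 measured 11.0 and 11.5 RPKM in Tamoxifen, against 8.94 and 10.5 RPKM in EtOH (0.20, SE 0.0847; adjusted p = 0.224). HOXA3 measured 3.998 and 3.82 RPKM in Tamoxifen, against 4.54 and 4.28 RPKM in EtOH (-0.14, adjusted p = 0.250). HOXD9 measured 6.35 and 6.10 RPKM in Tamoxifen, against 6.47 and 6.77 RPKM in EtOH (-0.08, adjusted p = 0.438), and HOXD11 1.33 and 1.495 RPKM in Tamoxifen, against 1.74 and 1.62 RPKM in EtOH (-0.15, adjusted p = 0.320). The groups of these 5 genes did not overlap.

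The others overlapped. HOXA2 measured 1.88 and 1.58 RPKM in Tamoxifen, against 1.86 and 1.69 RPKM in EtOH, with a log2 change of -0.02. HOXA5 measured 4.07 and 3.73 RPKM in Tamoxifen, against 3.61 and 3.85 RPKM in EtOH (0.05). HOXA13, the paralog of HOXB13 and HOXD13, measured 8.31 and 8.17 RPKM in Tamoxifen, against 8.77 and 8.20 RPKM in EtOH (-0.04). HOXD4 measured 1.82 and 1.21 RPKM in Tamoxifen, against 1.38 and 1.68 RPKM in EtOH (-0.02), and HOXD10 1.30 and 1.38 RPKM in Tamoxifen, against 1.81 and 1.18 RPKM in EtOH (-0.08). The limma adjusted p of these 5 lay between 0.674 and 0.954. HOXB3 and HOXB6, under the filter here, measured 0.943 and 0.817 RPKM and 0.797 and 1.11 RPKM in Tamoxifen, against 0.942 and 0.841 RPKM and 1.01 and 0.900 RPKM in EtOH. HOXB5 measured 0.625 and 0.735 RPKM in Tamoxifen, against 0.531 and 0.538 RPKM in EtOH, higher in both libraries, and with no filter its log2 change was 0.13 (limma adjusted p = 0.240). In that unfiltered fit its responses to DZNep and to Tamoxifen differed by -0.44 (adjusted p = 0.00789). HOXB4 measured 0.845 and 0.864 RPKM in Tamoxifen, against 0.782 and 0.821 RPKM in EtOH. HOXA4 measured 0.327 and 0.319 RPKM in Tamoxifen, against 0.388 and 0.561 RPKM in EtOH.

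Counted over the 16 tested members, Tamoxifen lay fully below EtOH for 9 and fully above for 2, where the shares over all genes were 23.2% below and 36.6% above. The median change was -0.10 over the members and 0.04 over all genes. The sum of all 39 genes was 187 and 185 RPKM in Tamoxifen, against 206 and 209 RPKM in EtOH, and HOXA contributed 99.4 and 96.7 RPKM in Tamoxifen, against 113 and 113 RPKM in EtOH. After DZNep, 6 of 18 tested members lay fully below DMSO and 3 fully above, against 19.4% and 26.1% of all genes. Marker sums differed in the genetic experiment too. Basal markers summed to 4123 to 4232 RPKM in Tamoxifen, against 5187 to 5583 RPKM in EtOH (1 of 7 rose and 1 fell), and luminal markers to 3893 to 4158 RPKM in Tamoxifen, against 4595 to 4979 RPKM in EtOH (0 of 9 rose and 1 fell), where 0.692% of all genes rose and 1.38% fell. The immune list lay the other way, at 63.0 to 67.5 RPKM in Tamoxifen, against 47.7 to 51.0 RPKM in EtOH, and CD14 rose (log2 change 0.50, limma adjusted p = 0.0305). Neuroendocrine markers summed to 7.67 to 7.99 RPKM in Tamoxifen, against 6.75 to 7.36 RPKM in EtOH, with 0 of 1 tested called. Fibroblast markers summed to 3.04 to 4.63 RPKM in Tamoxifen, against 3.84 to 4.33 RPKM in EtOH, also with 0 of 1. Their part in the HOX values was not tested.

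**Figure D5:**
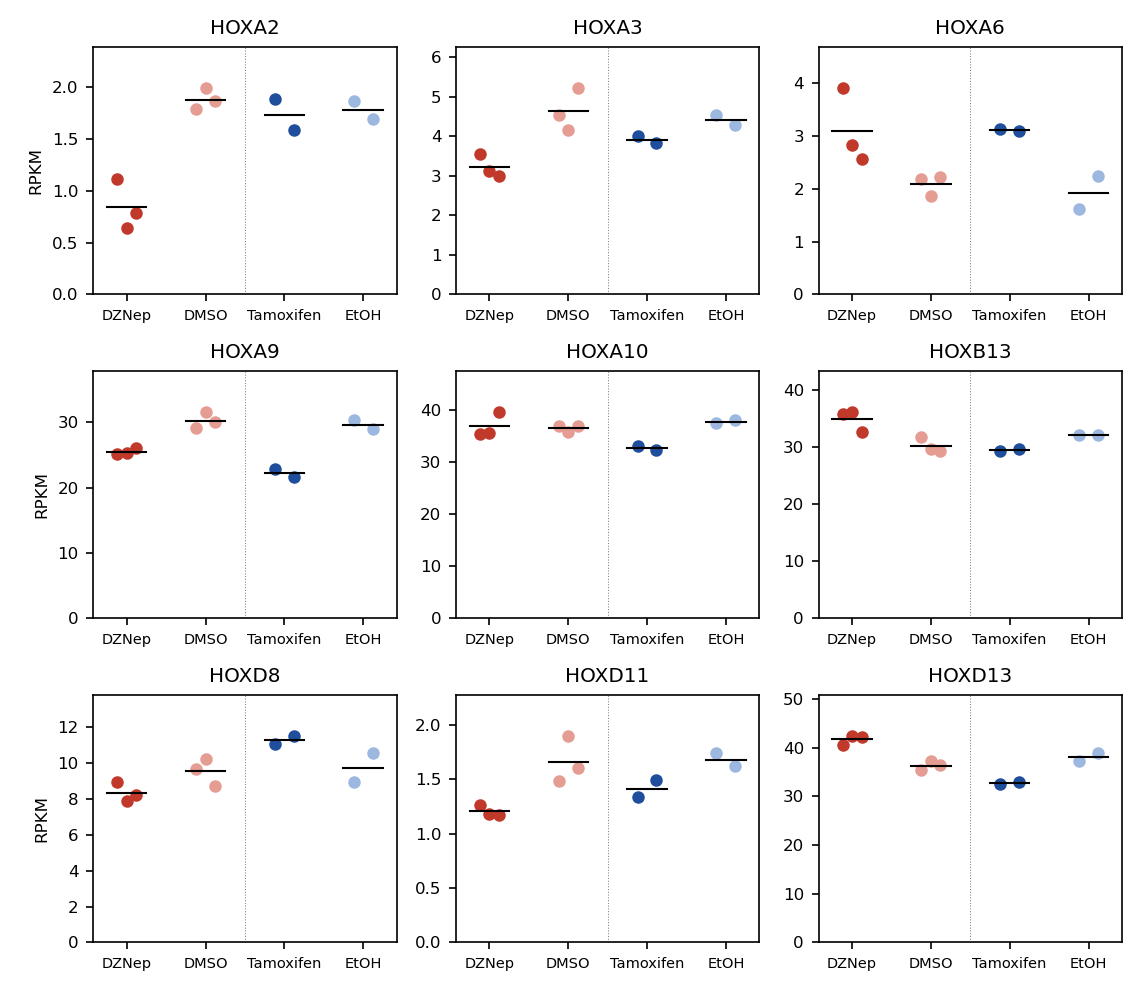
Selected HOX genes by library. Each point is the RPKM of 1 library, black lines are group means, and the dotted line parts the chemical from the genetic experiment. HOXA9 is lower in DZNep and in Tamoxifen than in its vehicle, and HOXD13 is higher in DZNep (40.6 to 42.3 RPKM) and lower in Tamoxifen (32.6 and 32.8 RPKM).

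The responses to DZNep and to Tamoxifen differed for 4 members when the difference itself was tested in 1 limma fit of all 10 libraries. HOXD13 gave the clearest difference, 0.41 (SE 0.0668; adjusted p = 0.00326), from changes of 0.19 after DZNep and -0.21 after Tamoxifen. HOXB13 gave 0.32 (SE 0.0809; adjusted p = 0.0217), from 0.20 and -0.12. HOXA2 gave -0.62 (SE 0.147; adjusted p = 0.0162; -1.06 with a pseudocount of 0.1), from -0.65 and -0.02, and HOXD8 gave -0.37 (SE 0.116; adjusted p = 0.0497), from -0.17 and 0.20. These are 4 of 16 members, 2 of them positive, and 19.9% of all 10994 genes were called in that test (10.7% positive and 9.2% negative). The HOXD13 difference passed without any single library (adjusted p of at most 0.0188), HOXA2 was lost without Tamoxifen 1 (0.0668), and HOXB13 and HOXD8 were lost without 5 and 7 of the 10 libraries, at adjusted p of up to 0.0750 and 0.179. For HOXA9, lower after both treatments, the difference was 0.16 (adjusted p = 0.147), and for HOXA6 it was -0.11 (adjusted p = 0.718).

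Partners and regulators of HOX proteins were read from lists chosen with earlier results of these data known. PBX, MEIS and PREP proteins are homeodomain cofactors that bind DNA beside HOX proteins, and 7 of 9 were tested in each experiment. None passed limma in either experiment, where 27.7% of all genes did after DZNep and 2.07% after Tamoxifen, and 0 had an unadjusted p under 0.05, where 41.7% and 25.5% of all genes had one. MEIS2 lay at 13.8 to 15.0 RPKM in DZNep, against 13.7 to 14.4 RPKM in DMSO. PBX2 averaged 12.5 RPKM in DZNep and 12.2 in DMSO, and MEIS1 8.34 in DZNep and 8.06 in DMSO. PKNOX1, which encodes PREP1, averaged 5.48 RPKM in DZNep and 5.005 in DMSO. PBX3 averaged 3.72 in DZNep and 3.89 in DMSO, and PKNOX2 2.39 in DZNep and 2.11 in DMSO. PBX4 and MEIS3 lay below the filter. The median change over the tested members was 0.04 after DZNep and 0.02 after Tamoxifen, where all genes had 0.01 and 0.04.

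Among upstream regulators and retinoic acid genes, 2 of 15 tested members rose and 5 fell after DZNep, with a median of -0.01, where 16.6% of all genes rose and 11.1% fell. After Tamoxifen 0 of 14 passed, where 2.07% of all genes did, and 1 had an unadjusted p under 0.05, where 25.5% of all genes had one. ALDH1A1, which makes retinoic acid, rose by 0.71 (limma adjusted p = 0.00169) and CRABP2, which carries it to the nucleus, by 0.90 (adjusted p = 0.00338). Among those that fell were the receptors RARB (-0.23, adjusted p = 0.0103), RARG (-0.25, adjusted p = 0.0260) and RXRA (-0.28, adjusted p = 0.0197). CDX2, an activator of HOX genes in the trunk and gut, did not pass (0.10, adjusted p = 0.434), and CDX1 and CDX4 were listed at 0 in every library.

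Chromatin regulators of the clusters were all expressed, and their counts stand beside 16.6% of all genes up and 11.1% down after DZNep, and 2.07% called and 25.5% at an unadjusted p under 0.05 after Tamoxifen. In the Trithorax and MLL list, which holds the activators of HOX transcription, DPY30 rose (log2 change 0.24, limma adjusted p = 0.0389) and the H3K27 demethylase KDM6B fell (-0.33, adjusted p = 0.0363) of 13 tested after DZNep, and 0 passed after Tamoxifen (2 at an unadjusted p under 0.05). Of 18 subunits of Polycomb repressive complex 1, 2 rose and 6 fell after DZNep. RING1 rose by 0.36 (limma adjusted p = 0.00492) and PHC3 by 0.29 (adjusted p = 0.0244). CBX6 (-0.35), PCGF3 (-0.39), PCGF5 (-0.29) and PHC2 (-0.30) were the 4 of smallest p that fell, and the median over the list was -0.10. After Tamoxifen the ubiquitin ligase RNF2 fell (-0.39, adjusted p = 0.0439), and 9 of the 18 had an unadjusted p under 0.05. Of 11 subunits of the EZH2 complex, 1 rose and 3 fell after DZNep, and 0 passed after Tamoxifen (2 at an unadjusted p under 0.05). EZH1, the paralog of EZH2, rose by 0.31 (adjusted p = 0.0142), and SUZ12 (-0.23, adjusted p = 0.00851) and PHF19 (-0.30, adjusted p = 0.0189) fell beside EZH2.

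Of the noncoding genes of the clusters, 10 of 19 listed were in the tables. HOTAIR, in the HOXC cluster, was listed at 0 in all libraries, as were MIR196A-2 and MIR615 of that cluster and MIR10B, MIR196A-1 and MIR196B elsewhere. MIR10A was past the filter in the chemical table alone and was not called (limma adjusted p = 0.487). HOXA11OS was past it in both, and after Tamoxifen it did not pass (27.2 and 27.2 RPKM in Tamoxifen, against 22.04 and 27.8 RPKM in EtOH; log2 change 0.13, limma adjusted p = 0.470). The relatives GSX1, EVX1, MNX1 and GBX2 were listed at 0 in every library. Of 8 genes reported in links with HOX proteins in prostate, 6 were tested. After DZNep 1 rose and 1 fell, where 16.6% of all genes rose and 11.1% fell, and the one that fell was GATA3 (-0.30, limma adjusted p = 0.0274). After Tamoxifen 0 rose and 1 fell, where 0.692% of all genes rose and 1.38% fell.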

How the data were processed

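The authors deposited 1 table per experiment, in log2 RPKM with a floor at 0, read here as log2(RPKM + 1). Reads were demultiplexed with bcl2fastq 2.18, and STAR, Cufflinks and mm9 are named, per the submitters' processing notes. Poly(A) RNA was prepared with a stranded kit, per the labels' protocols. Strand use and the handling of shared reads are not given in the sources used here. Symbols that a spreadsheet had turned into dates were left out.

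Genes averaging at least 1 RPKM in a table were tested with limma 3.58.1 in R 4.3.3 (mean trend, two-sided, Benjamini-Hochberg over all genes, threshold 0.05). Each experiment was fitted alone, with 4 and 2 residual degrees of freedom, and the difference of effects in 1 fit of 4 group means. The code was tested on simulated data. Members averaging 1 RPKM or more were named with every library. Some genes are counted but not reported by name here or drawn. The members, lists and tests were chosen with earlier results of these data known. No pairing was used in the main fits. Same-numbered libraries showed little shared deviation, which cannot decide whether they are paired. Alternatives were other pseudocounts, filters, scalings, variance priors, a replicate block and leaving out each library. Plots used Python 3.11.15 and matplotlib 3.10.9.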

Additional observations from a re-analysis of the deposited data

Results flagged for a closer look

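The change after DZNep differed from the change after Tamoxifen for 4 of the 16 HOX genes tested. That difference was tested with limma over all 10 libraries. HOXD13 gave a difference of 0.41 on the log2 scale (adjusted p = 0.00326), with 19.9% of all genes called in the same test. HOXB13 gave 0.32 (adjusted p = 0.0217), HOXA2 gave -0.62 (adjusted p = 0.0162) and HOXD8 gave -0.37 (adjusted p = 0.0497). The HOXD8 call was lost with no filter, with a filter of 5 RPKM, with no mean trend and with the replicate block. Without DZNep 2 or without DMSO 2, the HOXB13 and HOXD8 calls were both lost. The agents, the vehicles and the library sets differ together between the experiments and cannot be told apart.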

How the results depend on the processing

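The HOXA2 and HOXA3 calls after DZNep and the HOXD13 difference of effects held under the alternatives in which they were tested, and the 5 RPKM filter leaves HOXA2 and HOXA3 out. Most HOX counts moved. With 3 or 2 libraries a group, 1 library often decided a call. Leaving out each library gave 1522 (without DMSO 2) to 3359 genes called after DZNep, with 2 to 6 HOX genes, and 37 (without Tamoxifen 2) to 977 (without EtOH 2) after Tamoxifen, with 0 to 2 HOX genes. It gave 924 (without Tamoxifen 2) to 2326 genes for the difference, with 1 to 4 HOX genes. The log2 change of EZH2 then ran from -0.33 to -0.24 after DZNep, -0.058 to 0.21 after Tamoxifen and -0.49 to -0.22 for the difference.

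A filter of 5 RPKM, which tests fewer genes, left 3 HOX genes called after DZNep and 2 for the difference. After Tamoxifen, 1 gene of all was called with no filter, 388 with trimmed mean scaling, 646 with robust variances and 1028 where both experiments shared 1 fit. HOX genes called there were 0 with no filter, 0 with no mean trend, 2 with robust variances and 2 in the shared fit. The EZH2 difference was -0.36 in the main fit and did not pass (limma adjusted p = 0.0566). It passed in 3 of the 8 alternatives that kept all libraries. These were quantile normalization (-0.37), trimmed mean scaling (-0.34) and robust variances (-0.36). The cause of these shifts was not tested.

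Same-numbered libraries correlated at 0.06, 0.06 and -0.07 in the chemical and 0.04 in the genetic experiment. Differently numbered ones ran from -0.15 to 0.09 in the chemical experiment and lay at -0.04 in the genetic one. Deviations from means of 2 or 3 libraries constrain one another, so these values cannot decide whether the numbers pair libraries. With the replicate block, 1610 genes and 3 HOX genes were called after DZNep, 878 and 2 after Tamoxifen, and 1226 genes for the difference. After DZNep the limma adjusted p was then 0.0597 for HOXA6, 0.0769 for HOXB13, 0.0952 for HOXD11 and 0.0704 for HOXD13, which left 0 HOX genes up and 3 down, and after Tamoxifen HOXA6 passed (0.0410). EZH2 after DZNep kept its -0.28 at a limma adjusted p of 0.0588.

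Sign changes touched uncalled members near 0. After DZNep, quantile normalization gave -0.029 for HOXA5, -0.041 for HOXA7 and -0.013 for HOXA10, and trimmed mean scaling -0.017 for HOXA7 and -0.011 for HOXA10. Leaving out libraries gave HOXA5 -0.012 to 0.049, HOXA7 -0.073 to 0.070 and HOXA10 -0.042 to 0.036. After Tamoxifen it gave HOXA2 -0.10 to 0.055, HOXA13 -0.081 to 0.0051, HOXD4 -0.19 to 0.16 and HOXD10 -0.26 to 0.10. For the difference it gave HOXA5 -0.084 to 0.015, HOXA6 -0.26 to 0.047, HOXA11 -0.066 to 0.052, HOXD4 -0.068 to 0.28 and HOXD10 -0.23 to 0.14. Quantile normalization turned the difference to 0.0024 for HOXA11 and 0.020 for HOXD10, and trimmed mean scaling to 0.0076 for HOXA11.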

Other observations

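Genes at the edges of the clusters were below the filter and outside the tests above. HOTTIP, a noncoding gene beside HOXA13, measured 0.322, 0.337 and 0.256 RPKM in DZNep, against 0.0636, 0.148 and 0.0443 RPKM in DMSO, with no overlap. It measured 0.102 and 0.0526 RPKM in Tamoxifen, against 0.109 and 0.147 RPKM in EtOH, also apart. EVX2, the homeobox gene beside HOXD13, measured 0.644, 0.702 and 0.514 RPKM in DZNep, against 1.04, 1.05 and 0.917 RPKM in DMSO, with no overlap. It measured 0.708 and 0.786 RPKM in Tamoxifen, against 0.839 and 0.705 RPKM in EtOH, which overlapped. Both genes were singled out after their values were seen.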
